A study of Homo sapiens with 4 samples.

Results

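The unfolded protein response and the ATF4 stress response were followed through 38 genes, listed by name as known sensors, transcription factors, targets and endoplasmic reticulum (ER) chaperones of these pathways, a rule that uses no measured value. All 38 were found by symbol among the 58735 genes of the deposited tables. Of the 58735, 19895 genes reached 10 reads in 1 or more of the 4 libraries and were tested, and all 38 members were among them. By role they comprised 9 sensors and transcription factors, 5 feedback and effector genes, 6 enzymes of serine, folate and asparagine metabolism, 3 amino acid transporters, 12 ER chaperones and foldases and 3 genes of ER-associated degradation (ERAD).

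RNA-seq was performed on MHCC-97H, an established metastatic hepatocellular carcinoma (HCC) line, after 24 h with PBS or with 2 μg of migrasomes (Migs), vesicles that migrating cells leave behind on their retraction fibres. Normo-Migs came from MHCC-97H kept in normoxia, hypo-Migs from the same line kept in hypoxia, and CD147KO-Migs from its CD147-knockout derivative kept in hypoxia. The recipient cells were wild type in all 4 libraries, so no gene of theirs was targeted, and the study asked how hypo-Migs and their CD147 act on recipient cells. The oxygen and glucose levels used to make the Migs for these libraries are not given in the labels, nor is the number of knockout clones. Each condition had 1 library, and the labels place all 4 in the same batch.

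Unfolded proteins in the ER are sensed by IRE1 (encoded by ERN1), PERK (EIF2AK3) and ATF6. IRE1 splices XBP1 mRNA, PERK phosphorylates the translation factor eIF2 and so favours translation of ATF4, and ATF6 is cut in the Golgi to release a transcription factor. XBP1 and ATF6 turn on ER chaperones and ERAD genes, whereas ATF4, which also responds to amino acid shortage, turns on amino acid synthesis and transport, the factor CHOP (DDIT3) and the feedback phosphatase subunit GADD34 (PPP1R15A). The splicing of XBP1, the translation of ATF4 and the cleavage of ATF6 are not visible in reads counted per gene, which measure only the amount of each mRNA.

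Reads on genes numbered between 33882496 and 40285223 per library, and the 38 members took 0.856% of them after PBS and 0.909% to 0.937% after Migs. The library labelled PBS stood apart. It had 3 reads or fewer for 251 genes that had at least 100 reads in each other library, a count that was 0 for each of the Mig libraries. Of 17 hepatocyte and HCC markers, ALB, AFP, APOB, TTR and GPC3 had 0 reads in every library, KRT8 and KRT18 had at least 36742, and FGA and FGB had 0 reads in the library labelled PBS against 395 or more in each Mig library. FGG had 6 reads after PBS and 205 to 381 after Migs, and APOH 0 and 10 to 21. SERPINA1 went the other way, with 25 and 2 to 10, and HNF4A had 134 and 141 to 246. APOA1, APOA2, TF and AHSG had 11 or fewer in every library. The 5 cholangiocyte markers did not share a direction. KRT19 had 11287 reads after PBS and 32 to 75 after Migs, and KRT7 46770 and 16648 to 19191, whereas SOX9 had 7 and 327 to 441, EPCAM 578 and 1451 to 1834, and CFTR 12 or fewer in every library. The summed level of 9 fibroblast and stellate markers, per 1000000 reads on genes (CPM), was 26.1 after PBS and 596 to 656 after Migs. SPARC alone had 0 CPM after PBS and 388 to 434 after Migs. COL1A1, DCN, LUM, PDGFRB and THY1 were also higher in each Mig library. ACTA2 (71 reads after PBS, 68 to 95 after Migs) and COL3A1 (27, and 14 to 27) were not. COL1A2 had 2 or fewer in every library. Of 5 leukocyte markers, CD14 had 14 reads after PBS and 47 to 86 after Migs. PTPRC, CD68, CD3E and LYZ had 8 or fewer in every library. Of 5 endothelial markers, PECAM1 had 16 reads after PBS and 118 to 146 after Migs, and CDH5 84 and 30 to 72. VWF, KDR and TEK had 11 or fewer. Mitochondrially encoded genes took 2.69% of the reads of the library labelled PBS and 5.00% to 5.16% of those of the Mig libraries. The part of these differences in the results below was not tested. What in a comparison with PBS belongs to the treatment and what to this library cannot be told apart. Comparisons among the Mig libraries do not use the library labelled PBS. They follow for the 38 members together, with values printed for some of the members and further genes.

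Differences are given as log2 fold changes after scaling of the libraries by TMM, each with an exact 95% interval of the ratio of reads. Pairs of libraries were tested on their reads with the exact binomial test of edgeR, two-sided, and p-values were adjusted over the genes tested by the Benjamini-Hochberg method. With 1 library per condition this test compares libraries and not conditions, and the spread between cultures of a condition is unknown. The reads carry no molecular identifiers and may repeat the same molecule, so intervals cover counting error only. A gene met the study's criteria when its adjusted p was 0.05 or less and its expression differed at least 2-fold.

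The 4 most abundant members were ER chaperones on the deposited FPKM scale, which divides reads by gene length and library size, although the chaperones DNAJB9 and CRELD2 lay between 5.50 and 9.86 FPKM. CALR, the calcium-binding lectin chaperone calreticulin, had the highest FPKM in each library, with 293 in the library labelled PBS, 405 after normo-Migs, 395 after hypo-Migs and 385 after CD147KO-Migs. HSPA5, which encodes the ER Hsp70 BiP, followed in the Mig libraries at 299, 291 and 282 in the same order and stood at 205 after PBS. The membrane-bound lectin chaperone CANX and the ER Hsp90 paralogue HSP90B1 lay between 182 and 274 FPKM in all 4 libraries. ATF4 was the most abundant transcription factor of the group, at 88.1 FPKM with PBS and 137 to 150 in the Mig libraries.

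At the other end, ERN1 was at 1.76 FPKM with PBS and between 0.89 and 1.08 after Migs. EIF2AK3 lay between 3.85 and 4.67 FPKM in the 4 libraries and ATF6, the other sensor, between 10.2 and 11.1 after Migs and highest with PBS. ASNS, asparagine synthetase and a classical ATF4 target, had the lowest level of all members. It had 47 reads after PBS, 32 after normo-Migs, 41 after hypo-Migs and 48 after CD147KO-Migs, or 0.21 to 0.31 FPKM, whereas PSAT1 of the serine pathway, likewise an ATF4 target, had between 5499 and 7114 reads and 71.1 to 94.0 FPKM. The annotation places 44.6% of the exon bases of ASNS also in AC079781.5, a gene on the same strand that had 6 reads or fewer, and how reads in shared bases were assigned is not given in the sources used here.

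**Figure D1:**
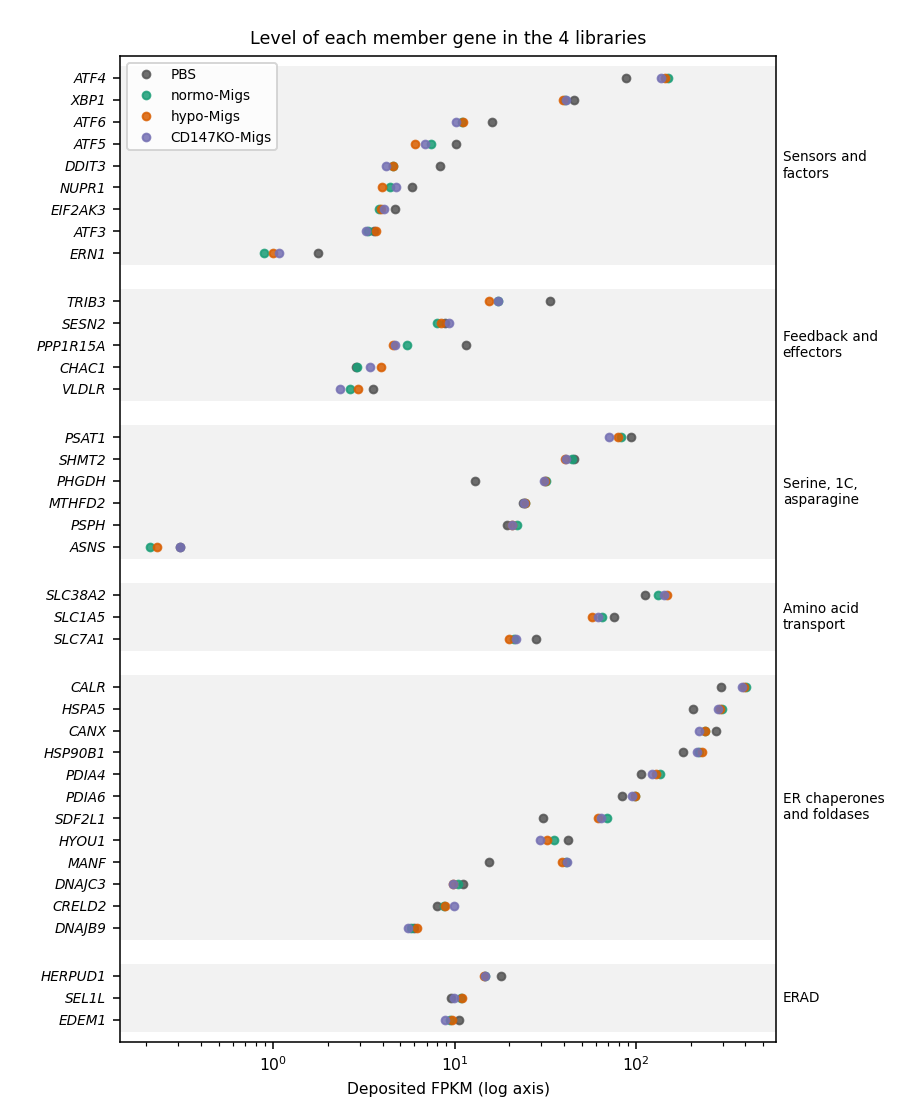
Deposited FPKM of the 38 members (log axis) in the 4 libraries, with 1 point per library and the genes grouped by role and ordered by mean level. CALR, HSPA5, CANX and HSP90B1 lie furthest to the right and ASNS, at 0.21 to 0.31 FPKM, furthest to the left. The library labelled PBS (grey) is set off from the Mig libraries for PHGDH, MANF and SDF2L1 on the low side and for ERN1, TRIB3, PPP1R15A and DDIT3 on the high side.

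The sequences upstream of these genes carry elements by which the responses are known to act, and those of 5 members whose levels are described below are shown. Promoter windows from 250 bases before to 50 bases after the gene start were taken from RefSeq (GRCh38.p14) for 35 members. PSPH, SHMT2 and NUPR1 had no window. The 250 bases before the start used for each window are printed 5′ to 3′ on the strand of the gene, with capitals for the letters of a motif that was searched on both strands. This start can differ from the gene coordinates given elsewhere in the text. By those coordinates the CHAC1 sequence lies wholly inside the gene, which begins at 40952962. The SDF2L1 and PPP1R15A sequences run past the gene starts at 21642261 and 48872392.
HSPA5 (chr9:125241344-125241593, minus strand): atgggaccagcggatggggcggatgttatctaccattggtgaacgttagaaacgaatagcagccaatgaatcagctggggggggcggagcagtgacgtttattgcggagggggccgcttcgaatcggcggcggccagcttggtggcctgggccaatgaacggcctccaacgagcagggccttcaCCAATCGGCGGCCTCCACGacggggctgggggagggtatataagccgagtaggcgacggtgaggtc
SDF2L1 (chr22:21642052-21642301, plus strand): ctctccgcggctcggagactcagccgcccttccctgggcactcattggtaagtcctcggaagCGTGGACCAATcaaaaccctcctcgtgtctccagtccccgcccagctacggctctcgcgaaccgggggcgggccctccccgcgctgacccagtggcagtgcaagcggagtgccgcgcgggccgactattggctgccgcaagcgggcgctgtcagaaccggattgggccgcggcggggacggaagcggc
HYOU1 (chr11:119057206-119057455, minus strand): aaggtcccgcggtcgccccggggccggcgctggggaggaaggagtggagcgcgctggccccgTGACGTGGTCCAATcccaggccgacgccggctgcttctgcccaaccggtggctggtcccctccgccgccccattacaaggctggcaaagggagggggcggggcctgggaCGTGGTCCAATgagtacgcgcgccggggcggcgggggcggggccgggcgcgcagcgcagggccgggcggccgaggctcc
PPP1R15A (chr19:48872171-48872420, plus strand): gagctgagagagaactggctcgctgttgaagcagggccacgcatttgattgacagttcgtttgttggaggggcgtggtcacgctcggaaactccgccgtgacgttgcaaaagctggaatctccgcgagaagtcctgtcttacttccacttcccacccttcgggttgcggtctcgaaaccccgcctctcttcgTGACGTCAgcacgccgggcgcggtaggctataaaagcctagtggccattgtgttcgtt
CHAC1 (chr15:40953221-40953470, plus strand): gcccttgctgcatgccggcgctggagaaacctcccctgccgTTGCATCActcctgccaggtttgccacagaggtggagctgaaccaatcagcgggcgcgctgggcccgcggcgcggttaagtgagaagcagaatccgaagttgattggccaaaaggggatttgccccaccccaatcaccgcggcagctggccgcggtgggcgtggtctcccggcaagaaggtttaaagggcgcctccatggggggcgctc
The capitals mark the ER stress response element (ERSE, CCAAT and CCACG with 9 bases between them) in HSPA5, ERSE-II (ATTGG and CCACG with 1 base between them) on the other strand in SDF2L1 and at 2 places in HYOU1, the cAMP response element (CRE) TGACGTCA in PPP1R15A, and the C/EBP-ATF response element (CARE) TGATGNAA on the other strand in CHAC1. In HYOU1 the UPR element (UPRE) TGACGTGG overlaps the ERSE-II that lies further from the gene start.

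Some genes have more than 1 window, and the 35 members had 51. ERSE was found for 7 members, CALR, CANX, CRELD2, HSP90B1, HSPA5, PDIA6 and XBP1. It stood in 17.6% of the member windows and in 0.0769% of all 35116 windows. ERSE-II was found for HERPUD1, HYOU1 and SDF2L1, in 5.88% of the member windows and in 0.0541% of all windows. CARE was found for 6 members, ASNS, ATF3, CHAC1, HERPUD1, SLC1A5 and SLC7A1, in 11.8% of the member windows and in 3.62% of all windows. CRE stood in 1.85% of all windows and UPRE in 0.729%, among the members only for PPP1R15A and HYOU1, respectively, each in 1.96% of the member windows. The pathways were in part defined on such promoters, so these shares describe the genes chosen. A match is not a site shown to be used, and a window without one says only that these letters are not in it.

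Against the library labelled PBS, the ER chaperones and foldases among the members were mostly higher with Migs and the sensors and feedback genes mostly lower. A further list of ER folding genes, given below, was not mostly higher. MANF, SDF2L1 and PHGDH met the criteria in all 3 Mig libraries on the high side, and PPP1R15A in all 3 on the low side. In the whole table, 12.6% of the genes tested met the criteria on the high side in all 3 Mig libraries and 6.66% on the low side. The 3 and the 1 of 38 members did not exceed these shares. Deeply read genes met the criteria less often, and most members are deeply read. Of the 6960 genes whose mean was 1000 reads or more, 415 met them on the high side and 201 on the low side in all 3. MANF, SDF2L1 and PHGDH are among these 6960 genes and PPP1R15A is not. Whether members exceed genes of that depth was not tested. In single comparisons, 4 members met the criteria with normo-Migs, 5 after hypo-Migs and 4 after CD147KO-Migs, where 27.2%, 28.3% and 27.5% of all genes tested did. Of the 6960 deep genes, 448, 474 and 461 met them on the high side and 247, 261 and 260 on the low side. The 3 comparisons share the library labelled PBS, so a deviation of that library enters all of them.

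By the adjusted p alone, which marks a difference beyond counting error whatever its size, 11 members were higher in all 3 Mig libraries and 17 lower, against 29.9% and 26.6% of all genes tested. Deep genes pass this test more readily. Among the 6960 genes whose mean was 1000 reads or more, 39.2% were higher and 39.5% lower, and of the 27 members at that depth 11 were higher and 10 lower, shares near those of other deep genes. The median log2 fold change of the members was -0.12 after normo-Migs, -0.14 after hypo-Migs and -0.13 after CD147KO-Migs. Over all genes tested the medians were 0.03, 0.04 and 0.03.

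Among the chaperones and foldases, 8 of 12 were higher in all 3 Mig libraries beyond counting error (adjusted p of 0.05 or less) and 2 were lower, where 39.2% and 39.5% of all deep genes were. MANF, a secreted ER-resident neurotrophic factor (ENSG00000145050, chr3:51385047-51389397, plus strand), had 1274 reads after PBS, 3356 after normo-Migs, 3750 after hypo-Migs and 3493 after CD147KO-Migs. The 3 Mig libraries lay far above the library labelled PBS and close to each other. The log2 fold changes were 1.41 (1.32 to 1.51), 1.34 and 1.43 (1.34 to 1.53) in the same order, the largest of the 38 members.

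SDF2L1, a cochaperone of BiP (ENSG00000128228, chr22:21642261-21644298, plus strand), had 1160 reads after PBS and 2615, 2734 and 2485 after the Migs in the same order. Its log2 fold changes were 1.19, 1.02 and 1.08. The value for hypo-Migs was close to the 2-fold criterion and missed it with libraries scaled by their totals alone, on log2(FPKM + 1) and among protein-coding genes alone (0.986, 0.986 and 0.995). Together with MANF, SDF2L1 was the chaperone with the widest gap between the library labelled PBS and the others.

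HSPA5 (chr9:125234853-125241330, minus strand), the usual readout of ER stress, had 27758 reads after PBS, 40137 after normo-Migs, 46068 after hypo-Migs and 38905 after CD147KO-Migs. In CPM this was 819 (95% Wilson interval 810 to 829) with PBS and between 1110 and 1161 after Migs. All 3 Mig libraries were higher, by log2 0.55 (0.53 to 0.57), 0.51 (0.49 to 0.53) and 0.47 (0.44 to 0.49), below the 2-fold criterion. CALR differed by 0.48, 0.44 and 0.41, HSP90B1 by 0.30, 0.35 and 0.26, and the disulfide isomerases PDIA4 by 0.34, 0.27 and 0.21 and PDIA6 by 0.25, 0.26 and 0.20. CRELD2, a secreted ER protein that binds misfolded proteins, was also higher in each Mig library (0.14, 0.15 and 0.31).

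Not all chaperones shared this direction. HYOU1, the ER Hsp110 that exchanges the nucleotide of BiP, had 11204 reads after PBS and 9330, 10068 and 7989 after Migs, and log2 fold changes of -0.25, -0.37 and -0.51. CANX was lower as well, at -0.19, -0.19 and -0.29. Of the J-domain cochaperones, DNAJC3 ranged from -0.18 to -0.08 and DNAJB9 from -0.11 to 0.07. Of the ERAD genes, HERPUD1 (-0.28, -0.29 and -0.28) and EDEM1 (-0.16, -0.11 and -0.26) were lower beyond counting error in all 3 Mig libraries, and SEL1L, the partner of the ligase HRD1, gave 0.20, 0.21 and 0.06.

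Genes with the same element upstream did not all differ in the same direction. Of the 7 members with ERSE, 5 were higher in all 3 Mig libraries beyond counting error and 2, CANX and XBP1, were lower by the same rule. Of all genes tested, 29.9% met this rule on the high side and 26.6% on the low side, and of the deep genes 39.2% and 39.5%. Of the 3 with ERSE-II, SDF2L1 was higher and HYOU1 and HERPUD1 were lower, although SDF2L1 and HYOU1 hold the same element as printed above. Of the 6 with CARE, 3 were lower and 0 higher in all 3 by that rule, and CHAC1, one of the remaining 3, had values above 0 in each that passed it only with hypo-Migs.

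Of the 9 sensors and transcription factors, 7 were lower in every Mig library beyond counting error, where 26.6% of all genes tested and 39.5% of the deep genes were, and ATF4 was the exception on the high side. ATF4 (ENSG00000128272, chr22:39519695-39522685, plus strand) had 7656 reads after PBS, 12973 after normo-Migs, 14717 after hypo-Migs and 12197 after CD147KO-Migs. The CPM was 226 (221 to 231), 375 (369 to 382), 365 (359 to 371) and 348 (342 to 354). The Mig libraries were higher by log2 0.78 (0.74 to 0.82), 0.72 (0.69 to 0.77) and 0.65 (0.61 to 0.69), which is 1.57-fold to 1.72-fold and below the criterion.

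XBP1 (chr22:28794555-28800597, minus strand) had 4740, 4219, 4818 and 4387 reads in the order PBS, normo-Migs, hypo-Migs and CD147KO-Migs. After scaling, the Mig libraries were lower by small amounts, with log2 fold changes of -0.15, -0.19 and -0.13. ATF6 (chr1:161766294-161964070, plus strand) had 4362, 2992, 3532 and 2850 reads and log2 fold changes of -0.52, -0.52 and -0.63. ERN1 had 661 reads after PBS and 334, 440 and 415 after Migs, and its log2 fold changes of -0.96 (-1.16 to -0.77), -0.80 (-0.98 to -0.63) and -0.69 (-0.87 to -0.51) were the largest in size among the 3 sensors. EIF2AK3 gave -0.27, -0.23 and -0.19, so mRNAs of all 3 sensors were lower in the Mig libraries than in the library labelled PBS.

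DDIT3, which encodes CHOP (ENSG00000175197, chr12:57516588-57521737, minus strand), had 374 reads after PBS, 205 after normo-Migs, 243 after hypo-Migs and 194 after CD147KO-Migs. It was thus lower where ATF4, its known activator, was higher, with log2 fold changes of -0.84 (-1.10 to -0.60), -0.83 (-1.08 to -0.60) and -0.96 (-1.23 to -0.71). MARS on the opposite strand shares 27.2% of the exon bases of DDIT3 and had 7020 to 9165 reads. The strand handling of the authors' counting is not given in the sources used here, so reads of such partners cannot be told apart. ATF5, a factor translated like ATF4, was lower at -0.45, -0.74 and -0.55, and NUPR1, a small stress-induced chromatin protein, at -0.39, -0.55 and -0.28. For ATF5, 21.2% of the exon bases lie in NUP62 on the opposite strand. ATF3, a further stress-induced factor, had 503, 461, 603 and 465 reads and did not differ beyond counting error in any of the 3 comparisons.

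The feedback genes downstream of ATF4 and CHOP held the lowest values. PPP1R15A (ENSG00000087074, chr19:48872392-48876057, plus strand), whose product GADD34 directs dephosphorylation of eIF2, had 1233 reads after PBS, 583 after normo-Migs, 570 after hypo-Migs and 514 after CD147KO-Migs. It was lower by log2 -1.06 (-1.21 to -0.92), -1.33 (-1.48 to -1.19) and -1.28 (-1.43 to -1.13). On log2(FPKM + 1) the value with normo-Migs was -0.95, short of the criterion. TRIB3 (chr20:362835-397559, plus strand), a pseudokinase that restrains ATF4 and CHOP, had 3973 reads after PBS and 2035, 2153 and 2100 after Migs. Its log2 fold changes were -0.95, -1.10 and -0.94, of which only that for hypo-Migs met the criteria.

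VLDLR, a lipoprotein receptor listed among ATF4 targets, was lower at -0.40, -0.26 and -0.59. SESN2, a leucine sensor that restrains mTORC1, ranged from -0.13 to 0.09. CHAC1, a glutathione-degrading enzyme induced by ATF4 and CHOP, had 204 reads after PBS, 204 after normo-Migs, 329 after hypo-Migs and 247 after CD147KO-Migs. Its log2 fold change was 0.02 (-0.27 to 0.31) with normo-Migs, 0.47 (0.22 to 0.73) with hypo-Migs and 0.25 (-0.02 to 0.53) with CD147KO-Migs.

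Among the members of the serine and folate branch, PHGDH stood alone. PHGDH (ENSG00000092621, chr1:119648411-119744226, plus strand) catalyses the entry step of serine synthesis and had 4118 reads after PBS, 10077 after normo-Migs, 11714 after hypo-Migs and 10174 after CD147KO-Migs. The log2 fold changes of 1.31 (1.26 to 1.36), 1.29 (1.24 to 1.34) and 1.28 (1.23 to 1.34) were nearly equal. The next enzymes of the same route, PSAT1 (-0.18, -0.23 and -0.39) and PSPH (0.19, 0.09 and 0.11), did not follow it. The mitochondrial folate enzymes SHMT2 (-0.02, -0.16 and -0.14) and MTHFD2 (0.06, 0.05 and 0.03) lay close to 0. PSPH has a copy, PSPHP1, with 296 to 577 reads, between which the counting may have split reads.

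The 3 transporters went different ways. SLC38A2, which carries small neutral amino acids, had 25531 reads after PBS and 29884, 39372 and 33410 after Migs, and log2 fold changes of 0.25, 0.41 and 0.37. The glutamine carrier SLC1A5 (-0.20, -0.38 and -0.27) and the cationic amino acid carrier SLC7A1 (-0.41, -0.48 and -0.37) were lower in every Mig library.

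**Figure D2:**
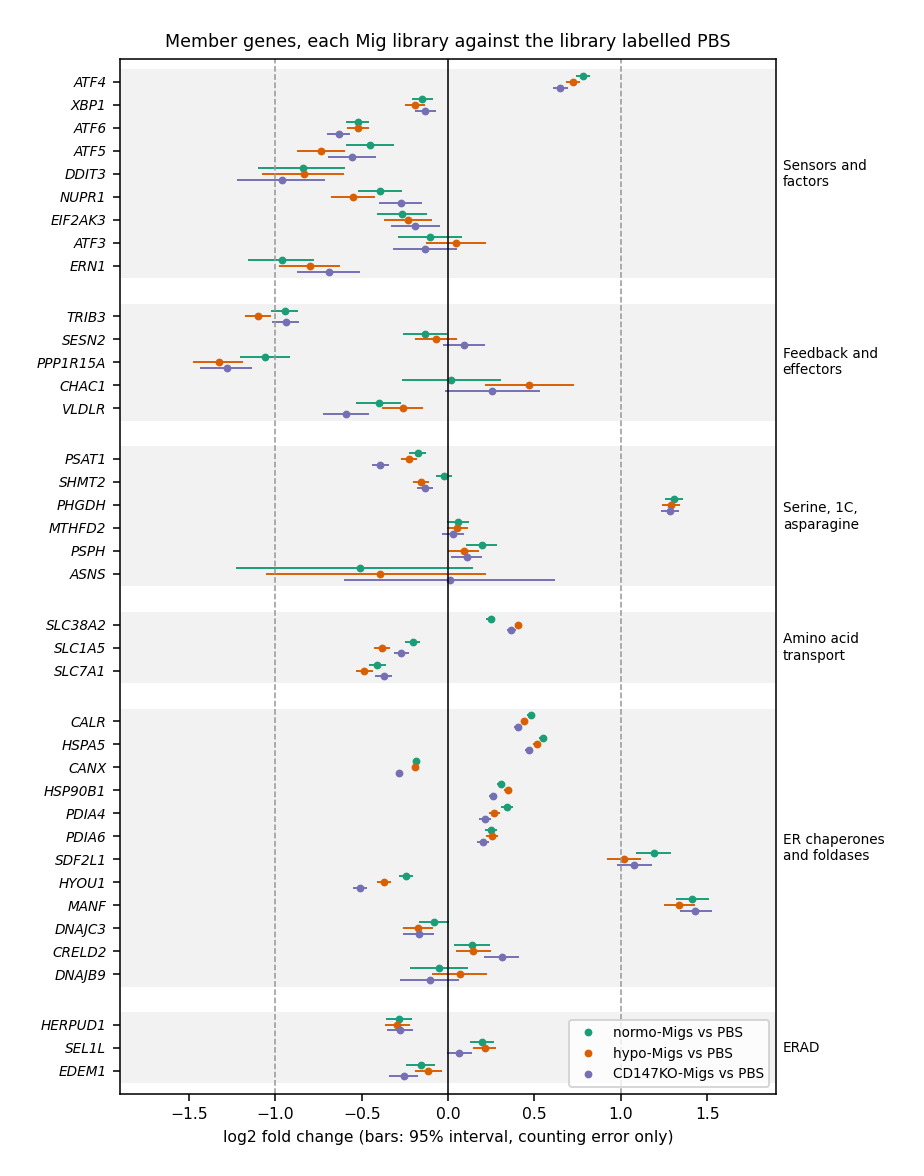
Log2 fold changes of the 38 members in each Mig library against the library labelled PBS (horizontal axis), by role, with points for the values, bars for exact 95% intervals of counting error and dashed lines at 2-fold. MANF, SDF2L1 and PHGDH lie beyond the right line in all 3 comparisons and PPP1R15A beyond the left. ATF4 is on the right at 0.65 to 0.78 while ATF6, ATF5, DDIT3 and ERN1 are on the left.

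Among the 3 Mig libraries, the members were close to each other. The criteria were met by 0 of 38 members between hypo-Migs and normo-Migs, 0 between hypo-Migs and CD147KO-Migs and 0 between normo-Migs and CD147KO-Migs. Of all genes tested, 4.90%, 5.04% and 4.91% met them in the exact test of edgeR. Of the 6960 deep genes, 1, 1 and 2 met them on the high side and 1, 0 and 0 on the low side. At an unadjusted p under 0.05 in the same exact test, 21, 25 and 21 members differed, and 0 of them by 2-fold. Of the 19895 genes tested, 7144, 7173 and 7054 differed at that p, and deep genes pass such a test more readily. When DESeq2 took the 4 libraries as replicates, 0 members differed even at an unadjusted p under 0.05, and 1, 4 and 7 of all genes tested did. That setting counts the gap to the library labelled PBS as spread, so its 0 cannot show that the members are close. The median log2 fold change of the members was -0.01, 0.02 and 0.06 in the 3 pairs. Each pair shares a library with each other pair.

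A looser rule asked for an adjusted p of 0.05 or less and a log2 fold change of at least 0.322 in size. It was met by 1 member between hypo-Migs and normo-Migs (CHAC1), by 1 between hypo-Migs and CD147KO-Migs (VLDLR) and by 0 between normo-Migs and CD147KO-Migs, against 9.46%, 10.3% and 10.1% of all genes tested. Most of the genes that met it have few reads. Among the genes whose mean was 1000 reads or more, 0.718%, 0.876% and 1.41% met it, and of the 27 members at that depth 0, 0 and 0 did.

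CHAC1 (ENSG00000128965, chr15:40952962-40956519, plus strand) was highest with hypo-Migs, at 8.17 CPM (95% Wilson interval 7.33 to 9.10), against 5.90 (5.15 to 6.77) with normo-Migs and 7.05 (6.22 to 7.98) with CD147KO-Migs. The library labelled PBS, at 6.02 (5.25 to 6.91), was level with normo-Migs. Hypo-Migs exceeded normo-Migs by log2 0.45 (0.20 to 0.71), or 1.37-fold, with an adjusted p of 0.00362 in edgeR's exact binomial test. Against CD147KO-Migs the difference of 0.22 (-0.03 to 0.46) was not detectable at this depth (adjusted p = 0.195, edgeR). With a coefficient of variation (CV) between libraries taken from the 3 Mig libraries (0.0746), the adjusted p between hypo-Migs and normo-Migs was 0.306, and the alternatives gave values from 0.00252 to 1 (DESeq2 and exact tests of edgeR).

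VLDLR (chr9:2621834-2660053, plus strand) had 1103 reads after hypo-Migs, 766 after CD147KO-Migs and 850 after normo-Migs. It was lowest with CD147KO-Migs and highest in the library labelled PBS. Hypo-Migs exceeded CD147KO-Migs by log2 0.33 (0.20 to 0.46), or 1.26-fold (adjusted p = 2.93e-05, edgeR's exact test). On the scale of log2(FPKM + 0.1) the difference was 0.318 and missed the looser rule, and with the CV of the 3 Mig libraries its adjusted p was 0.431 (edgeR). The alternatives gave adjusted p from 2.10e-05 to 1 (DESeq2 and exact tests of edgeR).

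The remaining differences were smaller. Between hypo-Migs and normo-Migs the next were ATF5 (-0.29), PPP1R15A (-0.27) and SLC1A5 (-0.18) on the low side and SLC38A2 (0.16) and ERN1 (0.16, not beyond counting error) on the high side. Between hypo-Migs and CD147KO-Migs they were CHAC1 (0.22) and ATF3 (0.18), and NUPR1 (-0.27), ATF5 (-0.18) and CRELD2 (-0.16). Neither ATF3 nor, in this pair, ATF5 or CHAC1 differed beyond counting error. Between normo-Migs and CD147KO-Migs, HYOU1 (0.26), PPP1R15A (0.22) and PSAT1 (0.22) were on the high side and ERN1 (-0.27), CHAC1 (-0.23, not beyond counting error) and SESN2 (-0.23) on the low side. ASNS differed by -0.52 (-1.24 to 0.13) in this pair, but had too few reads to be ranked.

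The main regulators were nearly level among the Mig libraries. ATF4 differed by -0.05 between hypo-Migs and normo-Migs, by 0.07 between hypo-Migs and CD147KO-Migs and by 0.13 between normo-Migs and CD147KO-Migs. XBP1 differed by at most 0.06 in size and HSPA5 by at most 0.08. DDIT3 gave 0.01, 0.13 and 0.12, with adjusted p of 1, 0.555 and 0.617 (edgeR's exact test). ATF6 gave 0.00, 0.11 and 0.11.

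With CD147KO-Migs the mRNAs of 7 of the 12 chaperones and foldases were slightly lower than in both other Mig libraries. HSPA5 differed by 0.05 between hypo-Migs and CD147KO-Migs, HSP90B1 by 0.09, CALR by 0.04, CANX by 0.09, PDIA4 by 0.06, PDIA6 by 0.05 and HYOU1 by 0.14, all beyond counting error. CRELD2 (-0.16) and MANF (-0.09) were higher with CD147KO-Migs than with hypo-Migs by the same rule, and SDF2L1 gave -0.06. Of the 27 members with a mean of at least 1000 reads, 13 were higher and 6 lower with hypo-Migs than with CD147KO-Migs by the adjusted p alone, where 18.2% and 17.5% of all genes at that depth were. Normo-Migs gave 14 higher and 3 lower than CD147KO-Migs (23.1% and 13.5% of the deep genes), and hypo-Migs gave 2 higher and 10 lower than normo-Migs (14.3% and 22.6%). No replicate exists against which differences of this size could be set. With an assumed CV of 0.1 between libraries 0 members differed in any of the 3 pairs even at an unadjusted p under 0.05 (edgeR). Of all genes tested, 1795 to 1874 did.

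Against the library labelled PBS and between hypo-Migs and normo-Migs, the size of the differences in the members was near or below that of other well-read genes. The median size of the log2 fold change of the members against the library labelled PBS was 0.28 after normo-Migs, 0.36 after hypo-Migs and 0.28 after CD147KO-Migs. For the genes whose mean was 1000 reads or more it was 0.35, 0.37 and 0.36, and for all genes tested 0.56, 0.56 and 0.57. Between hypo-Migs and normo-Migs it was 0.07 for the members, 0.07 for the deep genes and 0.15 for all genes. Between hypo-Migs and CD147KO-Migs it was larger in the members, at 0.10, than in the deep genes, at 0.07. Normo-Migs against CD147KO-Migs likewise gave 0.10 for the members and 0.07 for the deep genes. The gap between the highest and lowest Mig library was at most 0.52 on the log2 scale for any member, with a median of 0.14. For the deep genes the median of this gap was 0.11.

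**Figure D3:**
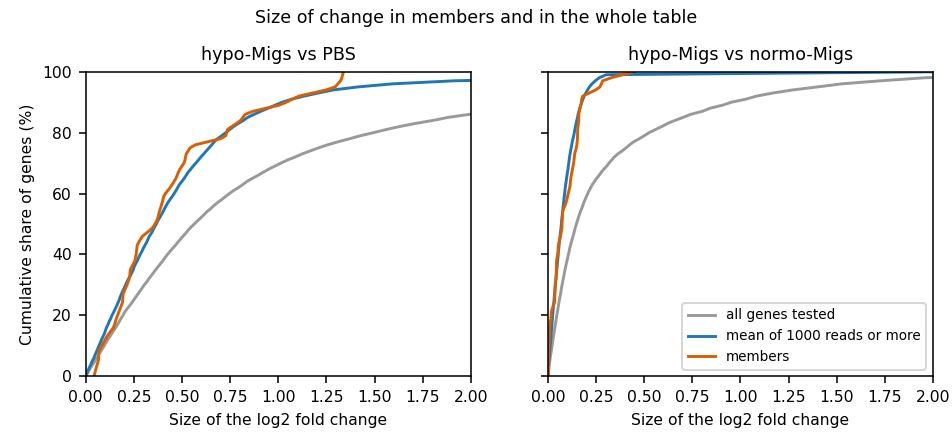
Cumulative share of genes (vertical axis, percent) against the size of the log2 fold change (horizontal axis, to 2) for hypo-Migs against the library labelled PBS (left) and against normo-Migs (right), with lines for all genes tested, genes with a mean of 1000 reads or more, and the 38 members. The line of the members runs along that of the deep genes in both panels, with medians of 0.36 and 0.37 on the left and of 0.07 and 0.07 on the right.

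Further genes of the same pathways were read from 8 lists written by hand, which hold no member. Of 34 further ATF4 and integrated stress response targets, 33 were tested, and FGF21, with 2 reads or fewer, was not. In all 3 Mig libraries, 4 (ALDH1L2, CBS, JDP2 and CTH) met the criteria on the high side and 1 (ADM2) on the low side, where 12.6% and 6.66% of all genes tested did. CTH is named after its values were seen. The median log2 fold changes were 0.15, 0.13 and 0.09.

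ALDH1L2, a mitochondrial folate enzyme, had 41 reads after PBS and 1881, 2148 and 2233 after normo-Migs, hypo-Migs and CD147KO-Migs. This was the widest gap in the list, with log2 fold changes of 5.47, 5.43 and 5.68. CBS, which makes cystathionine, had 417 reads after PBS and 2203, 3076 and 2422 after Migs (2.41, 2.66 and 2.51). JDP2, a repressor that binds with ATF3, had 203, 997, 1254 and 1297 reads (2.30, 2.40 and 2.64). ALDH1L2, CBS and JDP2 thus differed more than any of the 38 members.

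Within the Mig libraries, ADM2, a peptide hormone induced by ATF4, had 69 reads after normo-Migs, 153 after hypo-Migs and 84 after CD147KO-Migs, but 272 in the library labelled PBS. Hypo-Migs exceeded normo-Migs by log2 0.89 and CD147KO-Migs by 0.66. WIPI1, an autophagy protein, had 301, 501 and 300 reads in the same order and 152 after PBS, and hypo-Migs exceeded the other Mig libraries by 0.50 and 0.54. Both met the looser rule in both pairs that include hypo-Migs, which share that library. With an assumed CV of 0.1 neither did in either pair (edgeR).

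Of 13 eIF2 kinases, eIF2 and eIF2B subunits and phosphatase genes, 0 met the criteria in all 3 Mig libraries (edgeR's exact test), and their medians were 0.03, 0.10 and 0.05. Of these, EIF2B3, an eIF2B subunit, met the looser rule between normo-Migs and CD147KO-Migs at 0.323, with 1702 and 1398 reads, but missed it at 0.30 with libraries scaled by totals alone. Further ER folding genes (20), genes of ER entry and export (27) and further ERAD genes (22) had 0 members past the criteria in all 3 Mig libraries in the same exact test. Their medians lay between -0.15 and -0.08. Of the 20 further ER folding genes, 7 were higher and 11 lower in all 3 Mig libraries beyond counting error, unlike the chaperones and foldases among the members. By the same rule 10 genes of ER entry and export were higher and 12 lower, and 8 further ERAD genes were higher and 11 lower. Of all genes tested 29.9% were higher and 26.6% lower, and of the deep genes 39.2% and 39.5%. Of 15 further regulators, 14 were tested (ERN2 had 1 read or fewer), and 1 was higher and 1 lower by the criteria in all 3, against the same 12.6% and 6.66%. CREB3L1, an ER-anchored factor that directs secretory cargo, had 9 reads after PBS and 379, 448 and 320 after Migs (5.14, 5.15 and 4.86), and CREB3L3, a liver factor named after its values were seen, had 53 reads after PBS and 8 to 18 after Migs. Of 12 genes of the mitochondrial unfolded protein response, 0 met the criteria in all 3 (edgeR's exact test), and HTRA2, a mitochondrial protease, was lower with hypo-Migs than with normo-Migs by log2 -0.37.

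The cytosolic heat shock list had the lowest medians, -0.29, -0.37 and -0.41, and 12 of its 15 genes were lower in all 3 Mig libraries beyond counting error, 3 of them by the criteria. Of all genes tested 26.6%, and of the deep genes 39.5%, were lower beyond counting error, and 6.66% of all genes were by the criteria. HSPA1A, an inducible Hsp70, had 14602 reads after PBS and 2886, 2894 and 2357 after Migs (-2.32, -2.55 and -2.65). HSPA1B had 8458 reads after PBS and 2934, 3193 and 2677 after Migs (-1.51, -1.62 and -1.68). These copies are nearly identical, so the split of reads between them is uncertain. SERPINH1, a collagen chaperone of the ER that heat shock induces, had 22575 reads after PBS and 11024, 11407 and 9663 after Migs (-1.02, -1.20 and -1.25). HSPA1A also met the looser rule between normo-Migs and CD147KO-Migs, at 0.33, and missed it at 0.31 with libraries scaled by totals alone.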

How the data were processed

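RNA-seq covered MHCC-97H cells after PBS and after each kind of Migs, with 1 library per condition. The submitters' processing notes name CASAVA 1.8, fastp, HISAT2 2.0.5, featureCounts 1.5.0-p3 and hg38. The authors deposited raw counts of reads per gene, not normalized, and FPKM, reads per gene length and library size. Genes carried the coordinates of GENCODE release 29 and were matched by identifier.

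Genes that reached 10 reads in 1 or more libraries were tested with edgeR 4.0.16 (R 4.3.3; TMM, prior count 2, exact binomial test, Benjamini-Hochberg), since quasi-likelihood tests have no residual degrees of freedom here. The procedure was run on simulated counts that hold counting error only. That run does not cover spread between libraries or a library that stands apart. DESeq2 1.42.0 and 11 other settings were alternatives. A count of 0 allows 3 reads, or 0.0745 to 0.0885 CPM. Motifs were searched with Python 3.11.15.

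The text names ATF4, XBP1, ATF6, DDIT3 and HSPA5, the 5 members with the largest rise and fall against PBS, the 3 with the largest in each Mig pair (mean of at least 50 reads), and from each wider list at most 3 genes past the criteria against PBS and 2 past the looser rule in a Mig pair. Other members and markers are named to account for the lists. Members, lists and settings were chosen with earlier results of these data known.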

Additional observations from a re-analysis of the deposited data

How the results depend on the processing

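With 1 library per condition, no replicate could be left out, and the spread between cultures is unknown. No paired analysis was possible because the groups hold 1 library each. Of the members, 4, 5 and 4 met the study's criteria against the library labelled PBS with normo-Migs, hypo-Migs and CD147KO-Migs. With an assumed CV of 0.4 these counts were 0, 0 and 0 (edgeR), and with DESeq2 over the 4 libraries also 0, 0 and 0. At an unadjusted p under 0.05 both gave 0 members as well. Of all genes tested, 2932, 3115 and 3001 passed it with the CV of 0.4 and 1245, 1269 and 1294 with DESeq2. The looser rule (log2 0.322), met by 1 member (CHAC1) when hypo-Migs were compared with normo-Migs and by 1 (VLDLR) when compared with CD147KO-Migs, was met by 0 in either pair with an assumed CV of 0.1 or 0.4, with the CV of the 3 Mig libraries and with DESeq2. The FPKM scales carry no p-value, so there the fold alone was applied. VLDLR fell short of it on both (0.239 and 0.318), which left 0 members between hypo-Migs and CD147KO-Migs. On log2(FPKM + 0.1), 1 member (ASNS) passed the fold alone between normo-Migs and CD147KO-Migs, which is no call. The 4 settings that assume spread between libraries account by construction for their lost calls.

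Median log2 fold changes of the members moved by less than 0.1 under all 12 alternatives, between -0.17 and -0.10 against PBS. Of 1077 values of named genes, 971 kept their direction and side of the threshold, 105 no longer passed, 1 (ERN1 with normo-Migs, totals alone, -1.01) passed in addition, and 0 changed direction while past a threshold. Counts over all genes moved more. Against PBS, between 5415 and 5636 genes met the criteria, 2684 to 2753 with at least 10 reads in every library, 3586 to 3685 among protein-coding genes, 1619 to 1674 by the fold alone on log2(FPKM + 1), 1535 to 1633 with a CV of 0.4, and 0 with DESeq2. In Mig pairs, 975 to 1003 became 216 to 240, 365 to 418, 56 to 80, and 0 to 2 in the same order, 228 to 281 with a CV of 0.1, 332 to 347 with that of the 3 Mig libraries, and 0 with DESeq2. The looser rule was met by 1882 to 2040 genes, and 4925 to 5142 passed its fold alone on log2(FPKM + 0.1), where by construction no p was required.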
